A study of Mus musculus with 10 samples.

Results

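Immediate early genes are switched on within minutes of a stimulus, and 10 of them, Fos, Fosb, Jun, Junb, Egr1, Arc, Nr4a1, Dusp1, Ier2 and Btg2, were followed in ribosome-bound RNA of astrocytes and in the whole tissue it came from. The members were chosen by gene symbol, each matched 1 row, and all 10 are among the 18464 genes of the table and among the 17672 genes that passed the filter on low counts. The tissue was ventral midbrain, labelled SNpc/VTA, and all mice were naive animals of 1 strain, Aldh1l1-NuTRAP, in which a ribosome tag is made by cells that use the Aldh1l1 promoter. The 5 astrocyte fraction libraries (posfxn in the sample titles) and the 5 input libraries of all cell types carry the title numbers 88, 92, 976, 981 and 982, each shared by 1 fraction and 1 input library, and no animal of either group had received a drug. Age, sex and the stimulus history of the mice are not given in the labels, nor whether each number is 1 animal, so a p-value speaks only of the spread among these libraries, which may be technical.

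Immediate early genes need no new protein for their induction: calcium, cAMP and growth factor signals reach them through kinases that act on transcription factors already bound to their promoters, mainly SRF with its partners and CREB. Their mRNAs are short-lived. In brain, Fos, Egr1 and Arc are widely used as signs of recent neuronal activity, and several members also respond in glia and in vessels to injury, stress and handling of tissue. A level in unstimulated tissue is a snapshot of that recent history.

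Of the members, 8 of 10 were lower in the astrocyte fraction and 2, Ier2 and Btg2, were not called. Fosb, among the 8, is in the deposited table only through its input level, as given below. Arc and Egr1 kept 16.2% and 19.5% of their input level, close to what neuron marker genes kept, whereas Jun kept 59.5% and Dusp1 50.3%. Among all tested genes 37.5% were called lower, 33.1% were called higher and 70.6% were called in either direction, at an adjusted p under 0.05 (edgeR quasi-likelihood test, Benjamini-Hochberg adjustment over 17672 genes). With a fold of at least 2 also asked for, 6 of the 10 members were lower, against 24.3% of tested genes. In bulk RNA of this kind, fewer cells of a type and less RNA per cell cannot be told apart, nor can astrocyte RNA and RNA carried over from other cells. The fraction is ribosome-bound RNA and the input comes from whole tissue, so a difference in ribosome binding cannot be told apart from these either. The median log2 fold change, fraction minus input, was -1.25 over the 10 members and -0.06 over all tested genes. Higher genes made up 46.9% and lower genes 53.1% of all calls, and with libraries scaled to total counts 34.04% and 65.96%. That scaling lowered the all-gene median by 0.28 on the log2 scale, and it left the 8 members lower and added Ier2. The share of all tested genes called lower under that scaling is not given here, and 37.5% is not its background.

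The libraries held 24479136 to 26924406 estimated counts in 4 of the fraction libraries, 3845554 in the fraction library 92, and 21812193 to 30878894 in the inputs. In the fraction library 92 each count is worth 0.293 CPM, the unit of relative abundance used here (counts over the scaled library size), against 0.0399 to 0.0452 CPM in the other fraction libraries. Aldh1l1 itself was at 673 to 899 CPM in the fraction libraries and 88.2 to 108 CPM in the inputs. All 20 astrocyte markers were higher, at a median log2 fold change of 3.05, with Glul at 8907 ± 1347 CPM in the fraction and 1664 ± 71.4 CPM in the input (SD, n = 5 each). The fraction was not free of other RNA. The 18 neuron markers kept 18.6% of their input level at the median, the 12 oligodendrocyte markers 7.59% and the 12 microglia markers 5.33%, and their summed levels in the fraction libraries ran from 1882 to 2409 CPM, from 1003 to 1406 CPM and from 57.6 to 74.1 CPM (inputs 8528 to 9891, 7005 to 8473 and 434 to 592 CPM). Of these markers, Opalin, C1qc and Aif1 were at 0 in at least 1 fraction library and none was at 0 in all 5. Numbers 976 and 982 carried transcripts of the choroid plexus, with Ttr at 11036 and 2312 CPM in their fraction libraries and 2965 and 604 CPM in their inputs, against 0.334 to 11.5 CPM elsewhere.

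The members share a compact build that the choice by symbol did not use. By the coordinates of the deposited table, their gene spans ran from 1522 bases (Ier2) to 7947 bases (Nr4a1), a length that only 18.8% of 14489 tested protein-coding genes do not exceed, the median of those genes being 25388 bases. Exons and untranslated regions were taken from GENCODE M21, whose gene coordinates differ from the deposited ones for Nr4a1 and Dusp1. Jun, Junb and Ier2 have 1 exon in the transcript with the longest coding sequence, as have 3.05% of tested protein-coding genes. Of the 10 members, 6 have up to 3 exons, against 14.5% of those genes. The pentamer ATTTA, the core of AU-rich elements that speed mRNA decay, occurs 3 or more times in the 3′ untranslated region of 5 members and in 34.4% of the tested protein-coding genes. The longer form TTATTTATT is in 2 members, Fos and Dusp1, and in 7.28% of those genes. These 3 sites, from GENCODE M21 transcripts, are shown because both genes are textbook cases of short-lived mRNA, with the nonamer in capitals.
Fos: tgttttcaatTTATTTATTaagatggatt
Dusp1 (first site): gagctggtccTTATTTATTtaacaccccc
Dusp1 (second site): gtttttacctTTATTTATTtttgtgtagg

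Promoter sequences were matched for 7 of the 10 members in the RefSeq table (build GRCm38.p6, 250 bases before to 50 after the start). The 180 bases before the RefSeq start of each are printed 5′ to 3′ on the gene's strand, because CREB is a shared inducer of these genes, whose fraction-to-input ratios differ. The RefSeq start can differ from the gene coordinates of the deposited table, so that 47 of the printed bases lie inside the deposited gene for Dusp1 and 6 for Fosb. For Junb and Btg2, 30 and 35 bases lie between the printed stretch and the deposited gene. Capitals mark the CREB core TGACG on either strand, which was added to the motifs searched after the sequences had been read.
Fos, chr12:85473710-85473889, + strand: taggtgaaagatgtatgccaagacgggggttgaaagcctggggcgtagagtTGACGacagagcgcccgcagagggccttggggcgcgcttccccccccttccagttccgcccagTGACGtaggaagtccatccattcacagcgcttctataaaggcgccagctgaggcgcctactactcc
Fosb, chr7:19310046-19310225, - strand: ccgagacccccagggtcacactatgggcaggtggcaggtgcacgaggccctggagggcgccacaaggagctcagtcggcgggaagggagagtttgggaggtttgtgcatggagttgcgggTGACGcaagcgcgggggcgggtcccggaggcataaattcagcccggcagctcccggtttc
Jun, chr4:95052223-95052402, - strand: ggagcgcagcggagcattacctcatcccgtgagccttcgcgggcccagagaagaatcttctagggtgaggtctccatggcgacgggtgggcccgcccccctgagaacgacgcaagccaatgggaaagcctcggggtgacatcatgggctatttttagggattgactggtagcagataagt
Junb, chr8:84978749-84978928, - strand: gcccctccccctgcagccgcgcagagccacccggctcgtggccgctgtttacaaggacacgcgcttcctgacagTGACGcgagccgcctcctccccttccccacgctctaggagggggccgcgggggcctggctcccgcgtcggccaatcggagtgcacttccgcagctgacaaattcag
Nr4a1, chr15:101266666-101266845, + strand: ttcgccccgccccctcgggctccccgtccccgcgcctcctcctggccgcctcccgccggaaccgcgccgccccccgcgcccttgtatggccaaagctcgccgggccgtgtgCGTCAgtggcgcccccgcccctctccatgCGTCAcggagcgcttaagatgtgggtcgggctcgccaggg
Dusp1, chr17:26508473-26508652, - strand: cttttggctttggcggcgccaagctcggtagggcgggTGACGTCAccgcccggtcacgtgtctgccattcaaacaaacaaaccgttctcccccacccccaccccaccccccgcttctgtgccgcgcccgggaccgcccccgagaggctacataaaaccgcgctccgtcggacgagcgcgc
Btg2, chr1:134079156-134079335, - strand: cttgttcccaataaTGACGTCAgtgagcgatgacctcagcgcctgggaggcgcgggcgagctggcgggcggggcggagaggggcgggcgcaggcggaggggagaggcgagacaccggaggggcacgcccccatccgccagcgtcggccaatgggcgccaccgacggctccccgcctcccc

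In the full 300-base windows, searched on both strands, TGACG occurred in 6 of the 7 members (all but Jun) and in 20.8% of 32851 promoters. Because TGACG was picked after these sequences had been read, its count in them cannot be weighed against that share. The complete palindrome TGACGTCA contains the TGACG core on both strands. It was in Dusp1, starting 143 bases before the RefSeq start, and in Btg2, 166 bases before it, against 1.79% of promoters. The EGR motif GCGNGGGCG was in 3 members (Fosb, Nr4a1 and Btg2) and in 5.55% of promoters, and the GC box GGGCGG, which can overlap it, in 6 members and 35.7%. The CArG box bound by SRF, the AP-1 motif TGANTCA and the ETS motif CCGGAAGT were in none of the 7 windows and in 1.63%, 7.81% and 3.89% of promoters. Bases further than 250 before the start, and the promoters of Egr1, Arc and Ier2, were not searched. A lack of a motif in these windows therefore does not show that a gene has no such site. The TATA motif TATAAA was in 2 members and in 13.6% of promoters. The match began 33 bases before the RefSeq start in Fos and at that start itself in Junb.

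**Figure D1:**
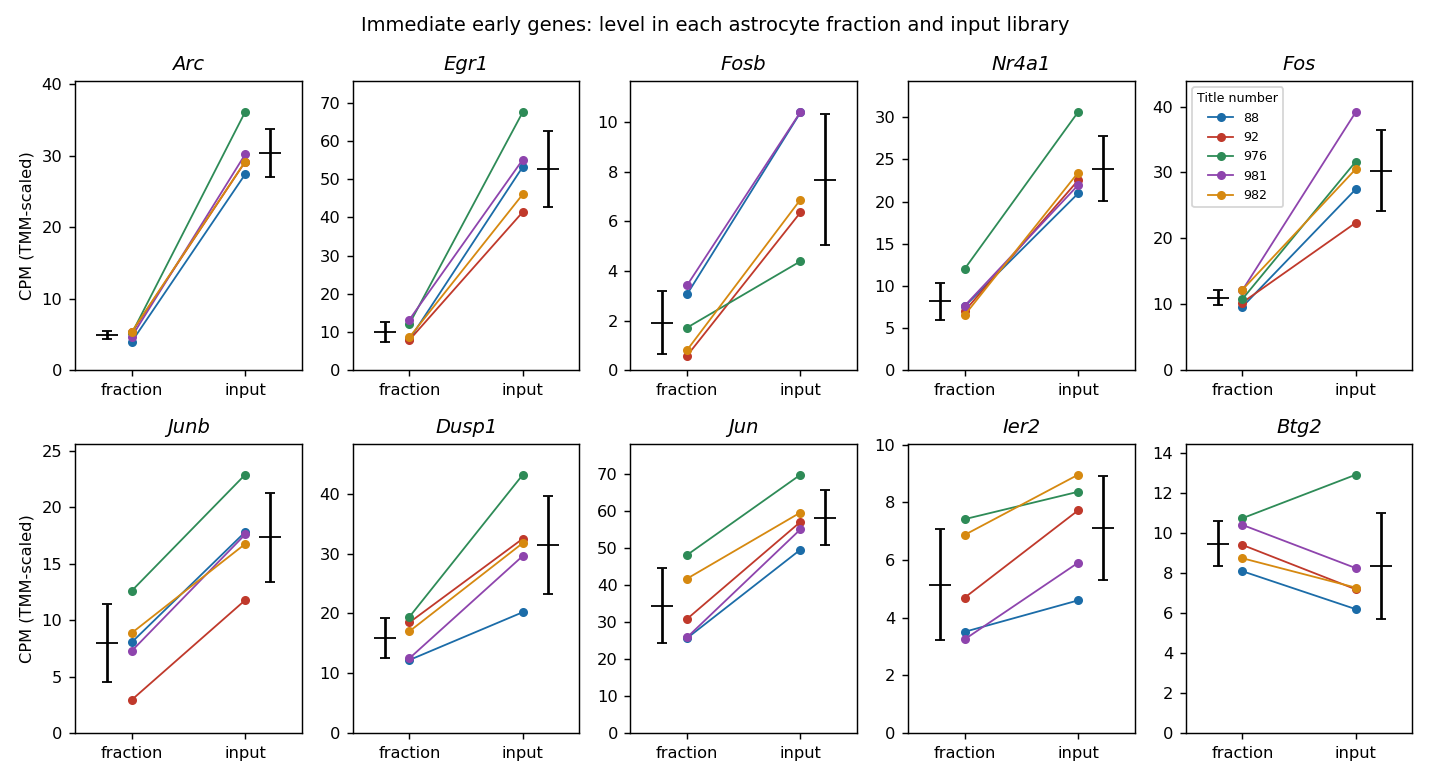
Level of each immediate early gene in every library, in CPM (linear axes from 0), astrocyte fraction left and input right; lines join libraries of the same title number, and black bars give the mean ± SD of the 5 libraries of a group. The lines fall to the left in all 5 numbers for every gene except Btg2, where only number 976 does.

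AP-1 is a dimer of a Fos and a Jun family protein, and its 4 member genes were all lower in the fraction, with log2 fold changes of -1.44 and -1.85 for the Fos genes and -0.75 and -1.06 for the Jun genes; the differences between genes were not tested. Fos, the classic activity gene (ENSMUSG00000021250, mm10 chr12:85473890-85477273), had 9.63, 10.3, 10.8, 12.1 and 12.2 CPM in the fraction libraries 88, 92, 976, 981 and 982, against 27.5, 22.4, 31.7, 39.2 and 30.5 CPM in the inputs of the same numbers. The groups did not overlap, and the fraction libraries lay closer together than the inputs. Its log2 fold change was -1.44 ± 0.15 (SE; edgeR adjusted p = 1.25e-06), that is 36.8% of the input level.

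Fosb (ENSMUSG00000003545, chr7:19302696-19310051), whose product pairs with Jun proteins and whose truncated form is known to accumulate with repeated drug exposure, had 3.06, 0.587, 1.71, 3.42 and 0.814 CPM in the fraction and 10.4, 6.35, 4.39, 10.4 and 6.87 CPM in the input, in the same order of numbers. The groups did not overlap, but the fraction libraries fell into high values (88 and 981) and low ones (92, 976 and 982), and 88 and 981 were also the highest inputs. The fraction library 92 rests on 2 counts after rounding, against 209 in its input. That is a ratio of 9.24% of its input with an exact 95% counting interval of 1.11% to 33.8%, which covers counting error only. The deposited table holds only genes with 5 or more counts in every library of a group. Fosb is therefore in it through its input level, a condition on its fold change, its p-value and the lack of overlap. Its fitted log2 fold change was -1.85 ± 0.53 (edgeR adjusted p = 0.00113).

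Jun, the main transactivating partner (ENSMUSG00000052684, chr4:95049034-95052222), had 25.6, 30.8, 48.1, 25.8 and 41.7 CPM in the fraction libraries, against 49.5, 57.02, 69.8, 55.01 and 59.6 CPM in the inputs. Every fraction library lay below every input, by a small margin between the highest fraction library, 976, and the lowest input, 88. The fold change was -0.75 ± 0.20 on the log2 scale (edgeR adjusted p = 0.0020). Of its exon bases, 7.28% overlap the antisense gene Junos, whose own level was 0.0798 to 2.35 CPM in the fraction and 0.221 to 1.29 CPM in the input.

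Junb (ENSMUSG00000052837, chr8:84974484-84978718), a weaker activator that can oppose Jun, had 8.04, 2.93, 12.6, 7.27 and 8.86 CPM in the fraction, against 17.8, 11.8, 22.9, 17.6 and 16.8 CPM in the input. Number 92 was lowest and number 976 highest in both groups, so the fraction library 976 overlapped the input 92, although each number was lower in its own fraction. Fitted, the log2 fold change was -1.06 ± 0.38 (edgeR adjusted p = 0.00312). Some 7.52% of its exon bases are shared with Prdx2 on the opposite strand (299.9 to 337 CPM in the fraction, 174 to 202 CPM in the input), and the strand setting of the counting is not stated in the labels, so the levels of Junb and Jun are uncertain.

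Per kilobase of transcript, Fos stood at 0.340 to 0.711 of the Jun level in the fraction libraries (median 0.504) and at 0.594 to 1.08 in the inputs (median 0.775). The ranges overlapped, and the ratio was lower in the fraction in each of the 5 numbers. Fosb made up 3.09% to 15.05% of the summed Fos and Fosb level in the fraction and 7.17% to 17.4% in the input. Jun was 1.81 to 5.96 times Junb in the fraction and 1.58 to 2.75 times Junb in the input, with number 92 highest in both groups; its fraction library rests on 10 Junb counts, and the next highest fraction value was 2.67.

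The remaining early transcription factors, the zinc finger gene Egr1 and the orphan nuclear receptor gene Nr4a1, were both lower. Egr1 (ENSMUSG00000038418, chr18:34859823-34864984) had 8.08, 7.92, 12.2, 13.3 and 8.64 CPM in the fraction libraries 88, 92, 976, 981 and 982, against 53.3, 41.4, 67.6, 55.1 and 46.07 CPM in the inputs. The groups did not overlap, and the highest fraction library, 981, lay far below the lowest input, 92. The fitted value was -2.36 ± 0.20 on the log2 scale (edgeR adjusted p = 8.40e-08).

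Nr4a1 (ENSMUSG00000023034, chr15:101266846-101274792), also called Nur77, had 7.59, 7.04, 12.04, 7.65 and 6.56 CPM in the fraction and 20.97, 22.5, 30.6, 21.95 and 23.4 CPM in the input. The groups did not overlap, and number 976 stood above the other 4 in both. On the log2 scale the fold change was -1.52 ± 0.18 (edgeR adjusted p = 4.42e-06).

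Arc (ENSMUSG00000022602, chr15:74669083-74672570), which encodes a capsid-like protein that moves to active synapses and drives receptor internalisation, had the largest difference of the 10. It was at 3.998, 5.28, 5.14, 4.70 and 5.38 CPM in the fraction, against 27.4, 29.1, 36.1, 30.2 and 29.2 CPM in the input. The 5 fraction libraries lay within a narrow band well below all inputs, and the percent of input within a number ran from 14.2% (976) to 18.4% (982), the smallest spread of log2 ratios among the members (SD 0.16). The fitted log2 fold change was -2.63 ± 0.10 (edgeR adjusted p = 8.98e-10). Of all tested genes, 3.66% had a lower value.

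Dusp1, Ier2 and Btg2 had log2 fold changes from -0.99 to 0.18. Dusp1 (ENSMUSG00000024190, chr17:26505590-26508519), a phosphatase that switches off MAP kinases, had 12.2, 18.5, 19.4, 12.5 and 17.0004 CPM in the fraction libraries, against 20.2, 32.5, 43.2, 29.6 and 31.8 CPM in the inputs. The highest fraction library, 976, was just below the lowest input, 88, and the 5 numbers had the same order in both groups. Its log2 fold change was -0.99 ± 0.23 (edgeR adjusted p = 0.000561).

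Ier2 (ENSMUSG00000053560, chr8:84661331-84662852), a nuclear protein gene with a single exon, had 3.51, 4.70, 7.42, 3.25 and 6.87 CPM in the fraction and 4.598, 7.72, 8.37, 5.90 and 8.96 CPM in the input. The groups overlapped, yet each number was lower in its fraction library. The log2 fold change of -0.45 ± 0.30 was not called (adjusted p = 0.150), while with the title number as a block it was -0.48 with adjusted p = 0.0273, and with scaling to total counts -0.72 with adjusted p = 0.0306.

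Btg2 (ENSMUSG00000020423, chr1:134075170-134079120), an antiproliferative gene whose product recruits the deadenylation machinery, had 8.08, 9.39, 10.7, 10.4 and 8.73 CPM in the fraction, against 6.18, 7.17, 12.9, 8.23 and 7.26 CPM in the input. In 4 numbers the fraction was higher, and in number 976 lower, where the input exceeded all other libraries. The log2 fold change of 0.18 ± 0.20 was not called (adjusted p = 0.420). Without the input library 976 it was 0.39 (adjusted p = 0.0364) and without number 976 in both groups 0.42 (adjusted p = 0.0362), whereas with scaling to total counts its sign turned, to -0.10.

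In 7 of 10 members the groups did not overlap, with the fraction below the input, against 31.1% of all tested genes; in 0 members the fraction lay wholly above, against 27.2% of all tested genes (either direction 58.2%). Junb, Ier2 and Btg2 overlapped. Fosb, among the 7, is in the deposited table only through its input level.

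**Figure D2:**
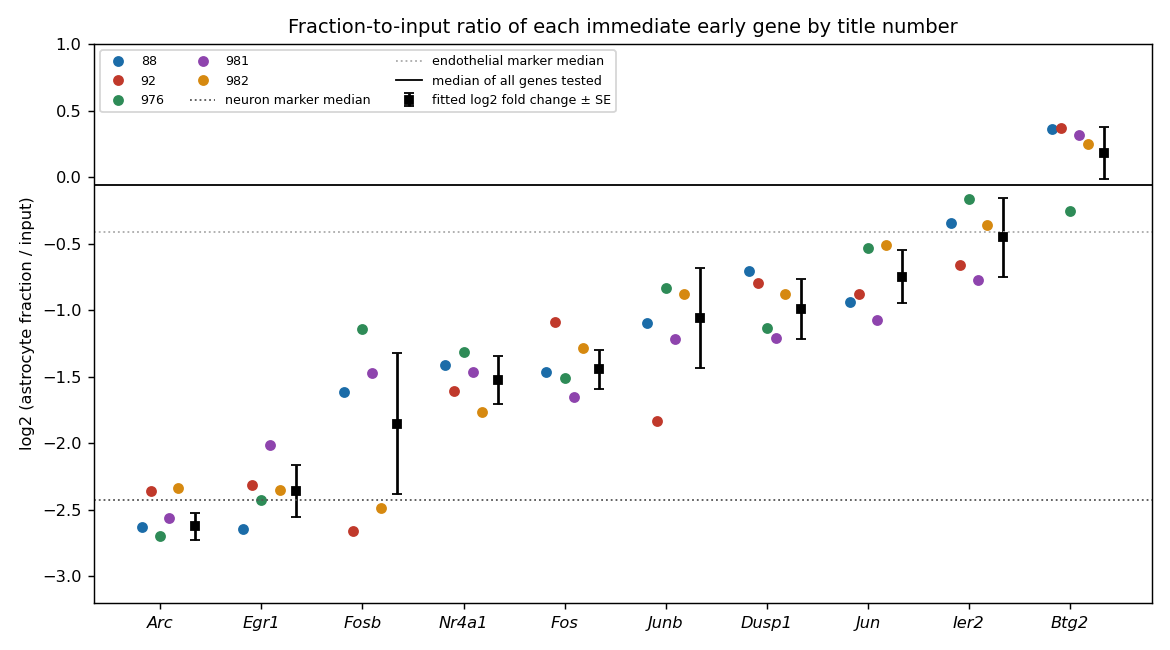
log2 ratio of astrocyte fraction over input within each title number (coloured points, CPM plus 0.5) and the fitted log2 fold change ± SE (black squares) for each gene, with the medians of neuron markers (-2.43), endothelial markers (-0.42) and all tested genes (-0.06) as horizontal lines. Arc and Egr1 lie nearest the neuron line, Ier2 near the endothelial line and Btg2 above the line of all genes.

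The members were set beside the markers of each cell type. The 18 neuron markers had a median log2 fold change of -2.43, with Snap25 at -2.18 and Eno2 at -2.42. They ran from -2.80 to -0.46, the highest being Map2, and 17 of the 18 lay below Fos. Arc lay below the neuron median of its own number in 5 of 5 numbers, Egr1 in 3 and Fosb in 2, whereas Fos, Nr4a1, Junb, Dusp1, Jun, Ier2 and Btg2 lay above it in all 5. The distance from the neuron median was -0.20 for Arc, 0.07 for Egr1, 0.57 for Fosb, 0.91 for Nr4a1, 0.98 for Fos, 1.37 for Junb, 1.44 for Dusp1, 1.68 for Jun, 1.98 for Ier2 and 2.61 for Btg2, on the log2 scale. No test was made of these distances, and the part of carried-over neuronal RNA in the members' levels was not tested.

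The other possible sources moved by different amounts. Oligodendrocyte and microglia markers had medians of -3.72 and -4.23, lower than any member, with Mbp at -3.69 and Csf1r at -4.68. Among 11 endothelial markers (median -0.42) the test called 6 lower and 0 higher, and only 2 lower without numbers 976 and 982 or without 976 alone. Cldn5 and Flt1 had log2 fold changes of -0.20 and -0.44; the call of Flt1 (adjusted p = 0.0393) was lost under 13 of 23 alternative settings. The test called 9 of 12 markers of mural cells and fibroblasts lower and 2 higher (median -1.49; Rgs5 -1.57, Vtn -1.41), the call of Vtn being lost under 5 settings, which left out the fraction library 976, number 92, number 976, number 981 or numbers 976 and 982 (adjusted p = 0.056 to 0.124). Without the fraction library 88 Vtn was at -2.08. The summed level in the fraction libraries was 96.7 to 144 CPM for the endothelial list and 109.6 to 181 CPM for the mural list, against 146 to 176 CPM and 155 to 203 CPM in the inputs. All 5 red blood cell markers were lower (median -2.53), Hba-a1 at -2.59 and Hbb-bs at -2.76, genes with near-identical copies. The 7 ependymal and choroid plexus markers were not called, with Clic6 at 2.66 (adjusted p = 0.0676) and Ttr at 1.90 (adjusted p = 0.547). With the title number as a block, both passed (Clic6 2.84, adjusted p = 1.15e-10; Ttr 1.86, adjusted p = 3.37e-07), and 3 of the 7 were higher and 2 lower. Clic6 also passed with DESeq2 (adjusted p = 0.0147), with limma (0.0243), without input 976 (4.09), without number 976 and without numbers 976 and 982, and was at 1.51 without the fraction library 976. The part of vessel cells in the members' levels was not tested.

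Scaled for length, the order of the members changed between the groups. In the fraction, Jun (10.8 ± 3.15 CPM per kilobase of transcript) and Dusp1 (7.999 ± 1.70) led, followed by Fos (5.22 ± 0.54), Junb (4.39 ± 1.92), Btg2 (3.45 ± 0.40), Ier2 (3.38 ± 1.26), Nr4a1 (3.20 ± 0.86), Egr1 (2.23 ± 0.56), Arc (1.60 ± 0.19) and Fosb (0.51 ± 0.34; SD, n = 5 libraries each). Neighbours in this order overlapped in range except Dusp1 over Fos, Egr1 over Arc and Arc over Fosb. In the input, Jun (18.2 ± 2.34), Dusp1 (15.8 ± 4.12), Fos (14.3 ± 2.92), Egr1 (11.8 ± 2.23), Arc (9.95 ± 1.10), Junb (9.60 ± 2.19), Nr4a1 (9.36 ± 1.51), Ier2 (4.67 ± 1.19), Btg2 (3.04 ± 0.96) and Fosb (2.03 ± 0.70) followed each other, and the ranges of neighbours did not overlap only at Nr4a1 over Ier2. Egr1 and Arc ranked 8 and 9 in the fraction and 4 and 5 in the input.

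**Figure D3:**
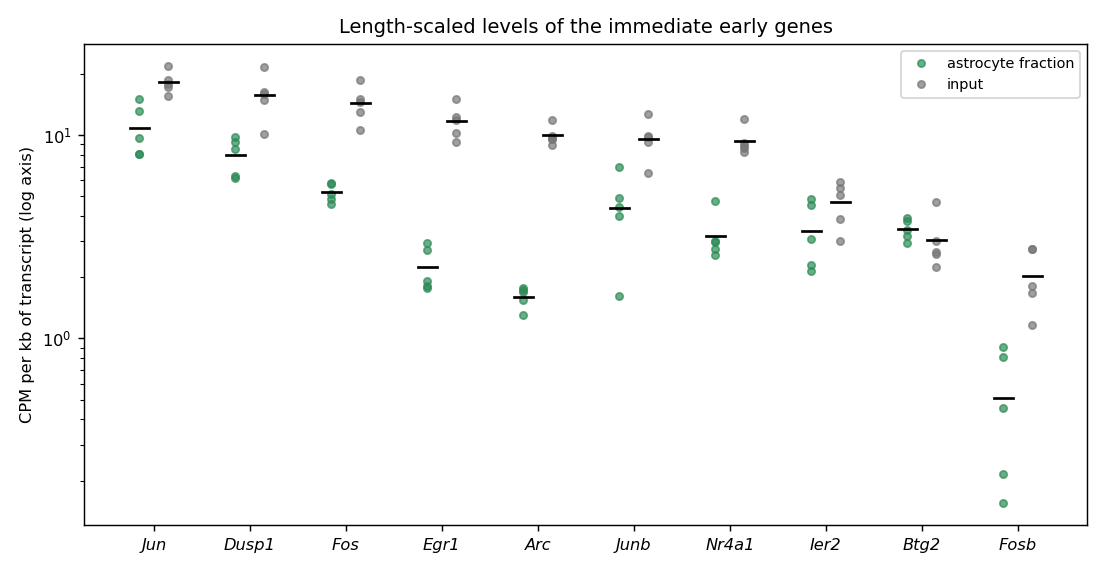
Level of each gene in CPM per kilobase of transcript (log axis), astrocyte fraction in green left of input in grey; points are libraries and bars the means of 5. Jun leads in both groups, while Egr1 and Arc are mid-ranked in the input and near the bottom in the fraction.

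The members did not vary alike between title numbers. Number 976 was the highest library for 6 members in the fraction and for 7 in the input, and number 88 the lowest for 5 and 6. The same number was highest in both groups for 6 members and lowest in both for 6. Fosb ran against this order. It was highest in 981 and next in 88 in both groups, the numbers in which Jun, Dusp1 and Ier2 were the 2 lowest in both groups. Number 976 also carried the most choroid plexus RNA, and the part of that tissue in the members' levels was not tested. Without numbers 976 and 982 the same count of 8 members was lower and 0 higher. In that fit 50.03% of all calls were higher and 49.97% lower.

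**Figure D4:**
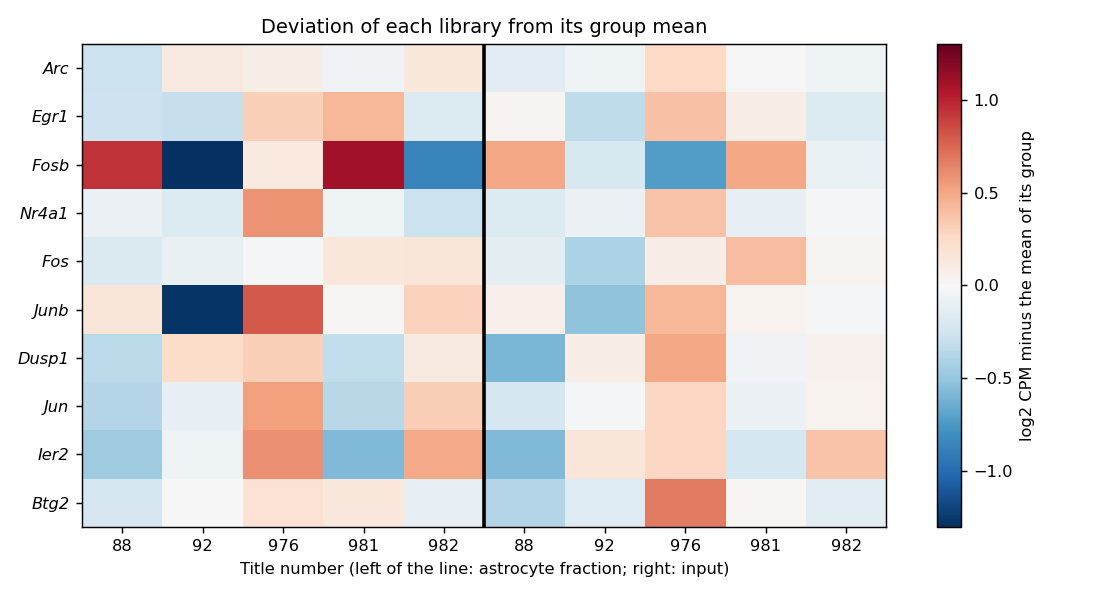
Deviation of log2 CPM from the mean of its group for each gene (rows) and library (columns), astrocyte fraction left of the line and input right, red above and blue below the mean. Number 976 is red for most genes on both sides (Fosb is blue in its input), and Fosb is red in 88 and 981, where Jun, Dusp1 and Ier2 are blue.

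By the rule for genes of a like pattern, the 10 non-members with the highest Pearson r to the mean deviation of the members, among 12113 genes with a mean of at least 5 CPM, were Isca1 and Slc16a9 (both 0.97), Prrg2, Rilpl2, Cox6b2, Hspa1b, Gpx8, Rnaset2a, Rdh10 and Spata6 (0.92 to 0.94). The r is over 10 libraries that share 5 numbers, so it is a description with no test. Only 3 of the 10 remained among the 10 highest without number 92. Hspa1b, an inducible heat shock gene, was lower in the fraction (4.73 ± 2.03 and 14.2 ± 3.68 CPM in fraction and input, log2 fold change -1.51); it and Rnaset2a have near-identical copies, so their counts are uncertain. The other 9 were higher, from 0.20 for Isca1, a call lost under 6 of the alternative settings, 1 of which, total count scaling, turned its sign (-0.089), to 2.44 for Gpx8, which was at 1.69 without the fraction library 976 and at 3.12 without the input 976.

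Other genes of the early response were counted beside the shares of all tested genes, 37.5% lower and 33.1% higher. Among 12 measured AP-1 relatives of 16 listed, the test found 7 lower (58.3%) and 1 higher (8.33%), and their log2 fold changes had a median of -0.52. Fosl2, the Fos relative Fra-2, was at 5.75 ± 0.99 CPM in the fraction and 17.02 ± 3.65 CPM in the input, a log2 fold change of -1.52 ± 0.19, close to that of Fos. Mafg was lower as well (-1.07). Atf7 was the gene that rose, with 52.2 ± 7.60 CPM in the fraction and 23.7 ± 0.96 CPM in the input (1.13 ± 0.09, adjusted p = 3.36e-07). Jund, the third Jun gene, was at 159 and 241 CPM in fraction and input (-0.60).

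Among 31 measured early nuclear regulators outside the members (32 listed), 13 passed as higher and 10 as lower (median 0.06), shares of 41.9% and 32.3% against 33.1% and 37.5% of all tested genes. The neuronal activity factor Npas4 had the lowest value, with 0.440 ± 0.463 CPM in the fraction and 5.40 ± 1.36 CPM in the input (-3.21 ± 0.74, edgeR adjusted p = 8.49e-05), being at 0 in at least 1 fraction library. The deposited table holds only genes with 5 or more counts in every library of a group, so Npas4, and likewise Egr4, Dusp2 and Dusp5 with a fraction library at 0, are in it through their input level, a condition on their fold changes and p-values. Npas4 was at -4.37 without numbers 976 and 982 and at -4.45 with limma on the authors' log2 values. Nr4a2, a sister gene of Nr4a1 and a dopamine neuron factor, was at 6.44 ± 2.64 and 33.0 ± 10.5 CPM in fraction and input (-2.31), and Egr4 at 0.975 ± 0.696 and 4.99 ± 1.77 CPM (-2.11). Nr4a3 (-1.88) and Egr3 (-1.76) were lower as well. The genes that rose most were Id2 (395 ± 42.0 CPM in the fraction, 41.9 ± 7.71 CPM in the input; 3.24 ± 0.14), Id3 (2.72) and the Notch target Hes1 (2.10). These 3 encode inhibitors of neuronal differentiation and are known to be expressed in astrocytes.

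The 44 measured early effectors outside the members had 19 genes passing in each direction (median -0.26), a share of 43.2% each against 33.1% higher and 37.5% lower over all tested genes. Zfp36l2 (200.2 ± 33.0 CPM in the fraction and 32.5 ± 4.57 CPM in the input; 2.61 ± 0.14) and Zfp36l1 (1.99), whose proteins bind AU-rich elements and promote mRNA decay, and the matricellular gene Cyr61 (2.27) rose most. Zfp36 itself was also higher (0.90). The secreted synaptic protein gene Nptx2 (7.16 ± 3.44 CPM in the fraction and 43.9 ± 15.7 CPM in the input; -2.62 ± 0.44), the neuropeptide precursor gene Vgf (-2.45) and the kinase gene Plk3 (-2.13) were lowest. Among relatives of Dusp1, Dusp6 was higher (0.69) and Dusp4 (-1.31), Dusp5 (-1.83), Dusp14 (-1.32) and the barely detected Dusp2 (-1.19) were lower. Btg1 (0.74), Tob1 (0.54) and Tob2 (1.13), of the family of Btg2, were all higher.

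For the machinery that induces these genes, the test called 25 of 41 measured pathway genes lower (61.0%, against 37.5% of all tested genes) and 10 higher (24.4%, against 33.1%), with a median of -0.45. Under total count scaling it called 30 lower and 5 higher, a setting in which lower genes made up 65.96% of all calls. The calcium-dependent kinase genes Camk2a (109.8 ± 40.3 CPM in the fraction and 621 ± 116 CPM in the input; -2.50 ± 0.27), Camk2b (-2.47) and Camk4 (-2.06), abundant in neurons, had the lowest values. The CREB coactivator gene Crtc3 (58.0 ± 9.96 and 22.2 ± 0.73 CPM in fraction and input; 1.39 ± 0.12), Stat3 (1.20) and the SRF partner gene Elk3 (1.18) rose most. For SRF and CREB themselves, Srf was at 28.5 and 34.4 CPM and Creb1 at 36.5 and 40.8 CPM in fraction and input, and neither was called (adjusted p = 0.0967 and 0.133).

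**Figure D5:**
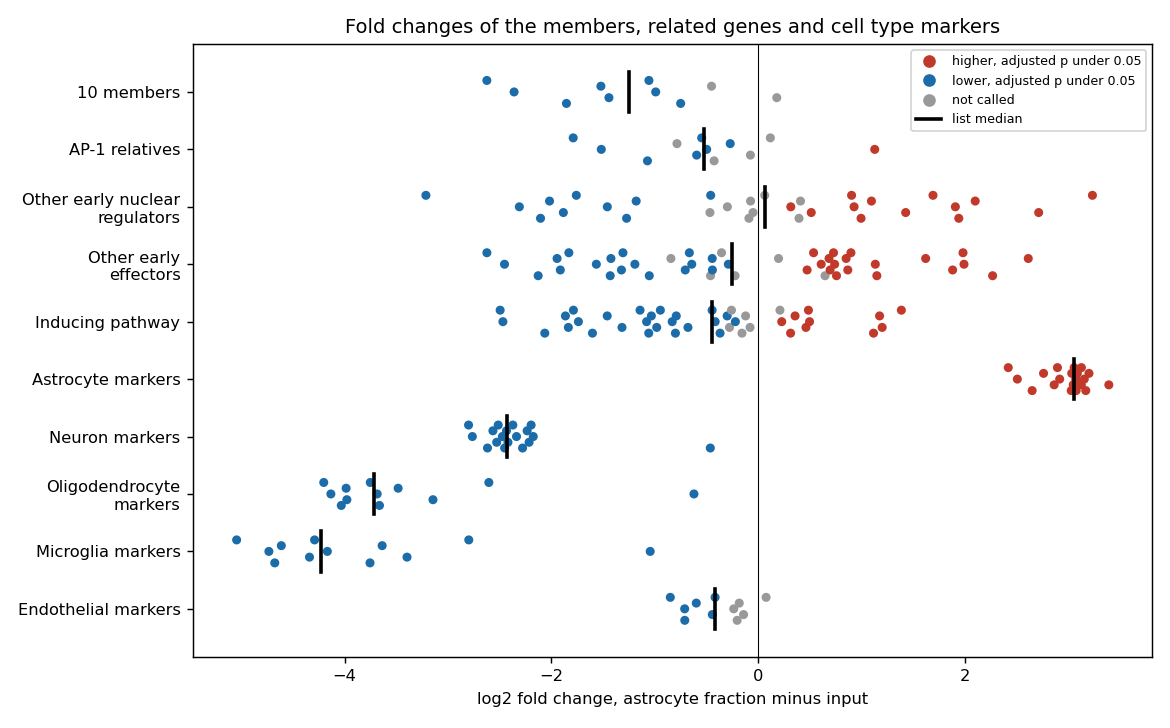
log2 fold change, astrocyte fraction minus input, of each tested gene (points; red higher and blue lower at an adjusted p under 0.05, grey not called) in the 10 members, 4 lists of related genes and 5 lists of cell type markers, with list medians as black bars. The members run from the level of the neuron markers (median -2.43) to just above 0, with a median of -1.25, while the related lists spread to both sides.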

How the data were processed

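The members and gene lists were chosen with earlier results of these data known. The authors deposited 1 table that gives, per gene and library, expected counts (estimates that need not be whole, not normalized) and normalized log2 values. The deposited log2 values are centred on the input median of each gene. CASAVA 1.8, DESeq and the build mm10 stand in the submitters' processing notes, with no role. Which aligner, counter or strand setting was used is not given in the sources used here. No gene of the deposited table falls under 5 counts in some library of each group. Expected counts were rounded to whole numbers for edgeR 4.0.16 (R 4.3.3; TMM, filterByExpr with minimum count 10, robust quasi-likelihood test, prior count 2), which kept 17672 genes and removed 792. The fit was also run on simulated data with few genes changed, evenly in both directions. That run does not bear on the scaling between the groups. CPM uses TMM-scaled library sizes, and an SE is that of the difference of mean log2 CPM. Transcript lengths and exon overlaps come from GENCODE M21 (GRCm38, equal to mm10).

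Same-numbered libraries deviated together from their group means (correlations 0.189 to 0.493, against an average of -0.0791 for different numbers), so the numbers pair the libraries. The main fit, which gives the calls and p-values above unless a setting is named, did not use this pairing. The block was an alternative beside DESeq2 1.42.0, limma 3.58.1 on the log2 values, other scaling, filters and prior count, and left-out libraries. Libraries of a group had a chi-square per degree of freedom of at least 11.2, above repeat counting. Besides the members, up to 3 called genes in each direction per list (mean at least 1 CPM), the 10 most alike genes and 2 markers per cell type were named by rule, some of which are not reported here; Nr4a3, Egr3, Jund, Zfp36, Srf, Creb1, Btg1, Tob1, Tob2, the other Dusp genes and the markers at 0 were named after their values were seen.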

Additional observations from a re-analysis of the deposited data

Results flagged for a closer look

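Nr4a1 in number 976 stood apart from the other 4 libraries of its group in both groups. Its level was 12.04 CPM in the astrocyte fraction library 976, against 6.56 to 7.65 CPM in the other fraction libraries, and 30.6 CPM in the input library 976, against 20.97 to 23.4 CPM in the other inputs. Both gaps exceeded Dixon's critical value for 5 samples at the 95% level. Of 20 groups checked (10 members in 2 groups), these 2 were marked, and chance marks about 1 in 20.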

How the results depend on the processing

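Under 23 alternative settings the 8 lower members kept their direction and their call in each, with log2 fold changes of -2.91 to -2.50 for Arc, -2.65 to -2.19 for Egr1, -2.20 to -1.59 for Fosb, -1.80 to -1.41 for Nr4a1, -1.73 to -1.33 for Fos, -1.33 to -0.90 for Junb, -1.27 to -0.85 for Dusp1 and -1.03 to -0.65 for Jun. With the title number as a replicate block, 9 members were lower, the addition being Ier2 (-0.48). The block changed no other member's call. Among the other genes named by rule it changed the calls of Ttr and Clic6. Of all calls under the block, 46.2% were higher and 53.8% lower. The share of all tested genes called under it is not given here, so the count of 9 has no background. Of the 10 genes most like the members, 3 were shared without number 92. The count of members called higher was 0, and ran from 0 to 1 when a library or number was left out, the 1 being Btg2 without the input 976 or without number 976. With scaling to total counts, Btg2 (-0.10) and Isca1 (-0.089) changed sign, and 5 pathway genes were higher in place of 10. With a library or number left out, Ttr ran from -0.19 to 4.14 and Clic6 from 1.51 to 4.09. The cause was not tested beyond the shift that total count scaling gives to all genes; limma on the authors' log2 values shifted the median of all genes by -0.13. At its depth, 1 count in the fraction library 92 is 0.293 CPM, and Fosb there rests on 2 counts.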
